A study of Mus musculus with 8 samples.

Results

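The comparison described here is germ-free against antibiotic-treated cecum: epithelial cells from the cecum of germ-free (GF) mice set against those of the antibiotic group named Abx_14D in the deposited cell table. Cells were taken by the sample name in that table (4 GF and 4 Abx_14D samples) and by a depth of at least 500 transcripts. This gave 1636 GF and 2296 Abx_14D cells, together 3932 of the 6773 cecal and 15916 cells of the series. GF mice carry no microbes, and what 14D stands for is not stated in the labels, which also give no age, sex, strain, antibiotic or count of animals. A shorter-labelled antibiotic group (Abx_4D) and untreated controls (Ctrl), 4 cecal samples each, are quoted as levels only. They share the fits wherever a sample held at least 20 cells of the class. All groups were sorted in the same way, as EPCAM-positive, CD45-negative cells with CD44-positive and CD44-negative cells loaded at 1:1, so the balance of dividing and differentiated cells was set in part by the sort.

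Both groups of mice lack a normal microbiota, one from birth and the other after treatment, and the series title names products of the microbiome and colon regional identity. The cecal epithelium renews from stem cells in the crypt through dividing progenitors to absorptive colonocytes and mucus-producing goblet cells. Interferons act on these cells through type I and type III receptors, JAK kinases and transcription factors of the STAT and IRF families, which switch on genes against viruses (OAS, IFIT, MX, ISG15, viperin) and the sensors of foreign nucleic acid themselves. Type II interferon adds, through the coactivators CIITA and NLRC5, the genes that present antigen on MHC class II and class I.

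The 4 GF samples held 267 to 619 cells and 6702465 to 14157157 transcripts, and the 4 Abx_14D samples 356 to 971 cells and 8068659 to 15414170 transcripts. Median mitochondrial shares were 0.229% to 0.663% in GF and 0.224% to 0.655% in Abx_14D samples, and were above 0.5% in GF sample 4 and in Abx_14D samples 3 and 4. The summed epithelial markers lay at 3460 to 5840 CPM (counts scaled to the summed transcripts of a sample) in GF and 3810 to 6270 CPM in Abx_14D samples. T and NK cell markers summed to at most 13.4 CPM in GF and 8.23 CPM in Abx_14D samples, and myeloid markers to 9.85 and 6.57 CPM. B and plasma cell markers reached 198 CPM in GF sample 2 and 131 CPM in Abx_14D sample 1, and stood at 4.42 CPM or less in the other 6. The non-coding X-linked RNA Xist had 1674 and 1171 CPM in GF samples 1 and 2 and 19.6 and 20.9 CPM in samples 3 and 4, against 901 and 1421 CPM in Abx_14D samples 1 and 2 and 19.7 and 17.2 CPM in samples 3 and 4. The Y-linked Uty ran the other way (195 and 205 CPM in GF samples 3 and 4, 178 and 179 CPM in Abx_14D samples 3 and 4, and at most 1.46 CPM in the rest). The split by number was thus the same in both groups. The labels say that cells were pooled by condition before the sort, which the split by number goes against for draws from 1 pool. No label ties a sample to an animal, so the tests below weigh differences against sample-to-sample spread alone, and that spread may be technical.

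Cells were sorted into classes by the summed share of fixed marker genes. The classes had the composition shown in the plot of shares. Dividing cells, gated on G2 and M phase genes, made up 16.5%, 16.7%, 14.9% and 13.2% of cells in GF samples 1 to 4, against 19.1%, 21.3%, 22.8% and 21.0% in Abx_14D samples 1 to 4. The groups did not overlap, with means of 15.3% ± 1.64 in GF and 21.1% ± 1.51 in Abx_14D (SD, n = 4 each). An exact permutation test (two-sided) gave p = 0.0286, which 4 against 4 samples cannot go below, and p = 0.257 once adjusted over the 9 classes. Goblet-gated cells made up 8.77% ± 2.06 in GF and 6.20% ± 0.946 in Abx_14D samples, and tuft-gated cells 1.45% ± 0.692 and 0.638% ± 0.322 in the same order. Neither passed (exact permutation p = 0.0857 for both, adjusted p = 0.257). Absorptive-gated cells varied far more within the groups than between them, at 8.24%, 14.7%, 19.4% and 30.1% in GF and 6.07%, 15.7%, 32.6% and 26.7% in Abx_14D samples. No class share passed adjustment.

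**Figure D1:**
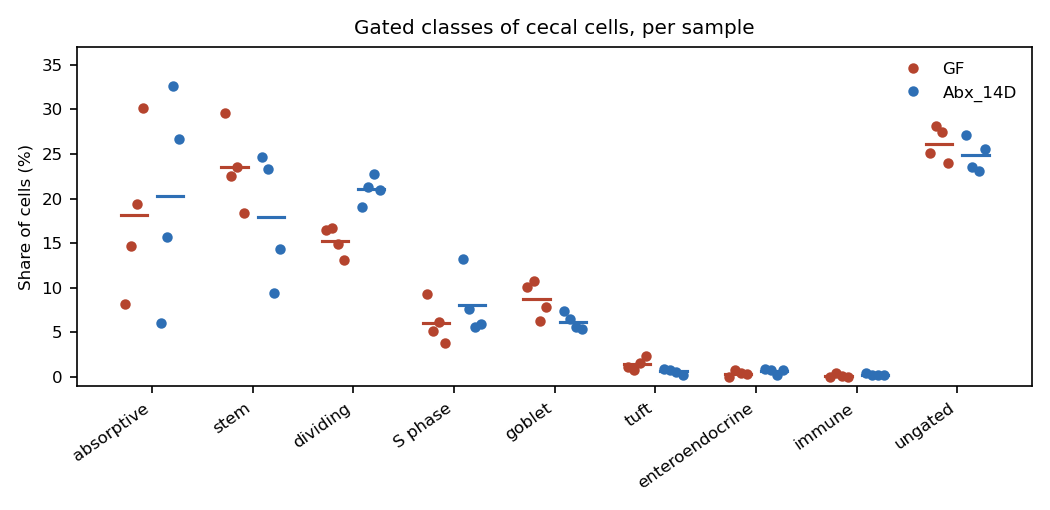
Share of each gated class among cecal cells (y axis, percent) in GF (red) and Abx_14D (blue) samples; points are samples 1 to 4 from left to right and bars are means. Only the dividing class separates the groups, with GF samples between 13.2% and 16.7% and Abx_14D samples between 19.1% and 22.8%.

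Over all cecal cells, GF differed from Abx_14D at few genes. Of 13376 genes tested, 86 passed an adjusted p of 0.05 (edgeR's quasi-likelihood test with Benjamini-Hochberg adjustment): 14 were higher in GF (0.105% of genes tested) and 72 lower (0.538%). Of these 86, 34 belonged to the 4 interferon lists, and all 34 were lower in GF. Among the 32 listed OAS, IFIT and ISG15 effectors, 31 passed the filter on low counts, 20 of these fell in GF and none rose. Their median change was -2.33 on the log2 scale, beside -0.02 over all genes. In these all-cell sums, fewer cells of a type and less RNA per cell cannot be told apart. Oasl2, an OAS-like antiviral protein, had 2.54, 4.10, 2.26 and 4.59 CPM in GF samples and 53.4, 85.5, 138 and 44.1 CPM in Abx_14D samples. It fell by 4.60 ± 0.46 (SE) on the log2 scale (adjusted p = 7.757e-05). Abx_14D sample 3, with 32.6% absorptive-gated cells, was the highest Abx_14D sample for 29 of the 34 genes of the 4 interferon lists that fell. The count of called genes was 54 without Abx_14D sample 3 and 56 without GF sample 3. It was 41, with 1 higher in GF and 40 lower, without the samples over 0.5% mitochondrial transcripts. The last setting left out GF sample 4, Abx_14D samples 3 and 4, and Abx_4D sample 2 (0.565%). It set GF samples 1 to 3 against Abx_14D samples 1 and 2, which were the high-Xist ones.

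In absorptive-gated cells the interferon response genes were at or near 0 in GF and plainly detected in every Abx_14D sample. Of 9347 genes tested, 66 were higher in GF (0.706%) and 201 lower (2.15%). All 30 tested OAS, IFIT and ISG15 effectors had lower fitted levels in GF, 27 of them past the threshold, with a median change of -4.05 beside 0.06 over all genes. Oasl2 had 6.08, 5.80, 3.63 and 9.73 CPM in GF samples, against 520, 505, 382 and 126 CPM in Abx_14D samples. It fell by 5.86 ± 0.46 on the log2 scale (adjusted p = 2.581e-07), and the groups did not overlap. Its mean was 510 CPM in Abx_4D and 233 CPM in Ctrl cells, levels on the Abx_14D side of the comparison. Abx_4D and Ctrl means in this class come from samples 3 and 4 alone, as samples 1 and 2 held fewer than 20 such cells. Rsad2, which encodes viperin, had 0, 1.16, 1.36 and 3.89 CPM in GF and 130, 150, 157 and 36.0 CPM in Abx_14D samples, and fell by 5.75 ± 0.51 (adjusted p = 8.028e-07). Ifit1, which binds foreign RNA caps, had 2.03, 4.64, 0.907 and 4.87 CPM in GF and 205, 193, 170 and 53.6 CPM in Abx_14D samples, and fell by 5.60 ± 0.48 (adjusted p = 6.158e-07). Herc6, the mouse ligase that attaches the ubiquitin-like ISG15, averaged 6.0 ± 4.05 CPM in GF and 197 ± 108 CPM in Abx_14D cells (SD, n = 4 each). Isg15 itself averaged 1.78 ± 1.57 CPM in GF and 92.9 ± 62.2 CPM in Abx_14D cells. In both, every GF sample lay below every Abx_14D sample.

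**Figure D2:**
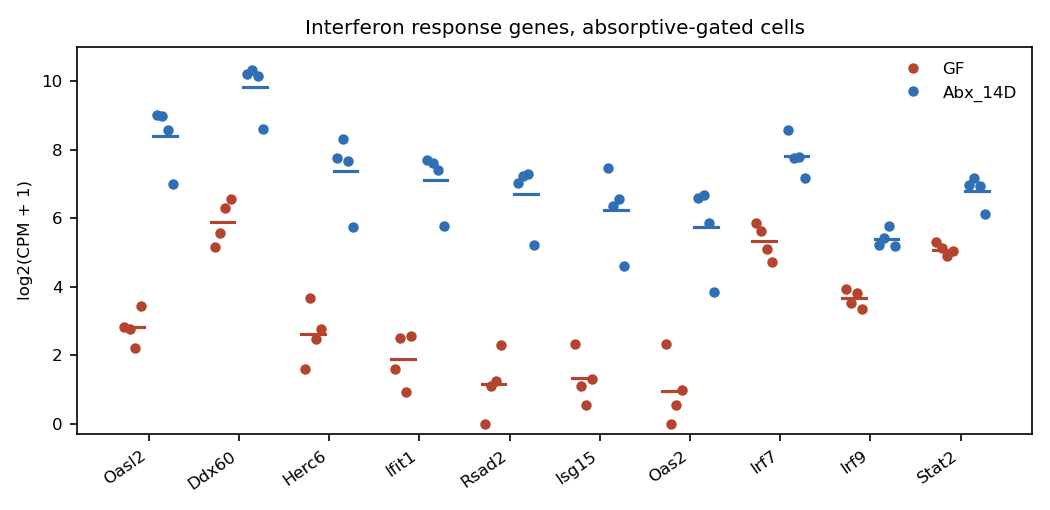
Levels of 10 interferon response genes in absorptive-gated cells (y axis, log2 of CPM + 1) in GF (red) and Abx_14D (blue) samples; points are samples 1 to 4 from left to right and bars are means. GF and Abx_14D samples do not overlap for any of the 10, and Abx_14D sample 4 is the lowest Abx_14D sample in each.

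Several effectors were all but absent from GF absorptive-gated cells. Ifit2 had 2 transcripts in GF and 272 in Abx_14D cells, an 85.5-fold lower summed CPM in GF (95% counting interval 23.4 to 710). Apol9b, an interferon-induced apolipoprotein L, had 2 and 246 transcripts in the same order (77.3-fold lower, 21.2 to 642), and Mx2, a dynamin-like antiviral GTPase, 2 and 195 (61.3-fold lower, 16.7 to 510). These intervals cover counting error only. Oas2, which makes the messenger that activates RNase L, had 4.06, 0, 0.454 and 0.973 CPM in GF and 96.2, 102, 56.7 and 13.3 CPM in Abx_14D samples. The effectors that did not pass were Ifi35 (10.8 CPM in GF, 25.0 CPM in Abx_14D), Ifi27 (11.7 and 24.4 CPM) and Mx1 (2.24 and 5.89 CPM). Several OAS, IFIT and GBP genes are close paralogs, and how reads shared between copies were counted is not given.

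The other interferon-linked groups divided by role. Of 9 tested interferon-induced GTPases, which attack intracellular vacuoles, 8 fell in GF, with a median of -3.95. Irgm2 averaged 5.72 ± 1.85 CPM in GF and 57.1 ± 19.9 CPM in Abx_14D cells, and Gbp2 had 0 transcripts in GF and 79 in Abx_14D cells, at least 16.6-fold lower in GF when GF is set to 3 counts in all. Iigp1 averaged 0.290 CPM in GF and 15.9 CPM in Abx_14D cells and did not pass (adjusted p = 0.1028). Of 8 tested sensors of nucleic acid, 5 fell. Ddx60, a helicase that promotes RIG-I signalling, had 34.5, 46.4, 77.6 and 92.9 CPM in GF and 1190, 1280, 1130 and 385 CPM in Abx_14D samples, and fell by 3.90 ± 0.34 on the log2 scale (adjusted p = 6.158e-07). Zbp1, which senses Z-form nucleic acid, averaged 1.00 ± 0.802 CPM in GF and 39.7 ± 24.1 CPM in Abx_14D cells. The RNA sensors Rigi and Ifih1 (MDA5) fell by 2.01 ± 0.31 and 1.23 ± 0.21. Of the 4 interferon lists, 44 genes fell in absorptive-gated cells. Abx_14D sample 4 was the lowest Abx_14D sample for 43 of these 44, and every GF sample was still below it for 42.

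Among 18 tested receptors, kinases, STATs and IRFs, 4 fell and 14 did not pass. Those described here, Irf7, Stat2 and Irf9, are known to be interferon-induced themselves. Irf7, the factor that amplifies type I interferon production, averaged 41.1 ± 14.3 CPM in GF and 239 ± 98.4 CPM in Abx_14D cells and fell by 2.60 ± 0.29 (adjusted p = 7.865e-06). Stat2 averaged 33.1 ± 4.18 CPM in GF and 115 ± 32.2 CPM in Abx_14D cells, and Irf9 11.8 ± 2.31 and 41.9 ± 8.63 CPM. The receptor genes did not pass. The type III receptor gene Ifnlr1 averaged 17.5 ± 2.00 CPM in GF and 21.1 ± 2.97 CPM in Abx_14D cells (log2 change -0.28 ± 0.25, adjusted p = 0.7412), the type I receptor gene Ifnar1 46.2 ± 6.25 and 37.8 ± 3.86 CPM (0.28 ± 0.21, adjusted p = 0.6721), and the type II receptor gene Ifngr1 293 ± 29.3 and 327 ± 85.6 CPM (-0.18 ± 0.19, adjusted p = 0.8087). Irf1 and Irf3 likewise did not pass (adjusted p = 0.9018 and 0.9502).

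Many OAS, IFIT and ISG15 effectors are known to be switched on through the interferon-stimulated response element in their promoters. The letters GAAANNGAAA were searched on both strands, with overlapping matches counted separately, in windows of 250 bases before to 50 bases after each gene's start (RefSeq, GRCm38.p6, a different build from that of the counts). They occurred in 3.44% of 32851 windows and in 3.21% of the 9544 windows of genes tested in absorptive-gated cells. Of 23 windows of effectors that fell in GF absorptive-gated cells, 14 held a match (60.9%), against 1 of 50 windows of genes that rose (2.00%). Of all 25 effector windows, 15 held one (60.0%), and of the 206 windows of all genes that fell in these cells, 42 did (20.4%). A match is a description of the letters and not a bound site. The windows below show 4 of the genes with the values above, each with the matched letters in capitals, and Oasl2, whose window has no match.
Isg15, chr4:156200769-156201068, minus strand: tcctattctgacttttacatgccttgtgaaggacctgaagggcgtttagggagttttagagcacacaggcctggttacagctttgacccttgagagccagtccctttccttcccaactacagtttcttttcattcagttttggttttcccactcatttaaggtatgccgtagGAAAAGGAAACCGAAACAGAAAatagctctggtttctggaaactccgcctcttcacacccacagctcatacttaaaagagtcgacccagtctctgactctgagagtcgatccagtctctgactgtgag
Rsad2, chr12:26456403-26456702, minus strand: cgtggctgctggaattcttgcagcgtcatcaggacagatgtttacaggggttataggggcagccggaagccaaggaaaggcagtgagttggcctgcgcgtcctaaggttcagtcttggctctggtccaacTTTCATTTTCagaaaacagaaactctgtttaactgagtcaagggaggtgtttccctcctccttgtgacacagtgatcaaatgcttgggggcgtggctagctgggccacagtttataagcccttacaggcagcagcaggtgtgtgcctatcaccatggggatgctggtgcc
Ifit1, chr19:34640639-34640938, plus strand: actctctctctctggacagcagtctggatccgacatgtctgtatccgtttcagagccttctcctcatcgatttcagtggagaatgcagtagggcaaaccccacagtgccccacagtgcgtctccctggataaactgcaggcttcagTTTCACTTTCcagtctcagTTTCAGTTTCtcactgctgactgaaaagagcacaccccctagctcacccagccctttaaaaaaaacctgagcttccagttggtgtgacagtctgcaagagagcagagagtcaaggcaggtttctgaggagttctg
Ddx60, chr8:61927837-61928136, plus strand: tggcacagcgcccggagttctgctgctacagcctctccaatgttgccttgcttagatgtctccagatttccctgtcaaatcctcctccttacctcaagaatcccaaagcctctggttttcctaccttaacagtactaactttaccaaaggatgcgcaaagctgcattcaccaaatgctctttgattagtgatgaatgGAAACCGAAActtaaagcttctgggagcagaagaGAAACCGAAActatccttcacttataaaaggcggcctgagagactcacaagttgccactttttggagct
Oasl2, chr5:114896684-114896983, plus strand: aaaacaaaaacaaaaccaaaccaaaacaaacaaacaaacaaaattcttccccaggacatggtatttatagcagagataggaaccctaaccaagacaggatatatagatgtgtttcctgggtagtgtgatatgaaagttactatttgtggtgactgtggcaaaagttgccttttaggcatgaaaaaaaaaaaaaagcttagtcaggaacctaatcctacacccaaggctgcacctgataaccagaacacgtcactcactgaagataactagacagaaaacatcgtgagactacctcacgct
In Isg15 and Ifit1 the first matches start 78 and 104 bases before the gene start, and in Ddx60 the first of its 2 starts 53 bases before it. For Oasl2 this says only that these letters are not in this window.

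For single genes the groups also differed in the share of cells with a transcript. With each cell thinned to 5000 transcripts, Oasl2 was found in 12.5%, 4.55%, 1.96% and 1.79% of absorptive-gated cells in GF samples 1 to 4 and in 83.3%, 78.0%, 62.4% and 42.1% in Abx_14D samples 1 to 4. An exact permutation test (two-sided) gave p = 0.0286, and p = 0.0429 adjusted over 12 such tests. Unthinned, the shares were 2.50% to 9.09% in GF and 51.4% to 92.9% in Abx_14D samples. Thinning left out 87 of 305 GF and 84 of 540 Abx_14D absorptive-gated cells as too shallow. In stem-gated cells the thinned share was 0.725% to 3.37% in GF and 0% to 6.54% in Abx_14D samples (adjusted exact permutation p = 0.499), a range that the GF absorptive shares overlapped. Unthinned, the stem-gated shares were 0.685% to 5.06% in GF and 5.33% to 21.8% in Abx_14D samples and did not overlap. Ddx60 was found in 12.5% to 26.8% of thinned absorptive-gated cells in GF and in 49.1% to 88.9% in Abx_14D samples, against 0% to 3.37% and 3.80% to 7.89% of stem-gated cells. Oasl2, Ddx60 and the other genes tested singly (Cd74, Bmp3 and Aoc1) were also called in absorptive-gated cells from the same counts. Their share tests in those cells are thus no independent evidence. At least 1 of the effectors was found in 82.9% ± 7.49 of thinned absorptive-gated cells in GF and in 97.3% ± 3.01 in Abx_14D samples, which did not pass (exact permutation p = 0.0571, adjusted p = 0.0762), and in 73.6% ± 7.07 and 87.7% ± 4.78 of stem-gated cells, which did (adjusted exact permutation p = 0.0429).

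The loss in GF was larger in absorptive-gated than in noncycling stem-gated cells. In a fit of both classes with the sample as a block, 50 genes were more lowered, or less raised, in absorptive-gated cells (0.476% of 10506) and 30 the other way (0.286%). Of 28 tested effectors, 10 were in the first set and none in the second. Rsad2 had 1.60 CPM in GF and 118 CPM in Abx_14D absorptive-gated cells, but 10.3 and 8.97 CPM in stem-gated cells, a difference of -6.08 ± 0.97 in log2 change (adjusted p = 0.001427). Herc6 had 6.0 and 197 CPM in absorptive-gated and 3.85 and 7.08 CPM in stem-gated cells in the same order (-4.34 ± 0.61, adjusted p = 0.0003705), and Trim30a, an interferon-induced TRIM protein, 6.12 and 83.3 CPM against 2.61 and 3.08 CPM (-3.87 ± 0.70, adjusted p = 0.004974). Usp18, which removes ISG15 and damps receptor signalling, had 0.760 and 34.9 CPM in absorptive-gated and 2.46 and 2.17 CPM in stem-gated cells (-5.13 ± 0.90, adjusted p = 0.004145). Ifit1 and Zbp1 also passed, but had 5 and 3 transcripts in GF and 0 in Abx_14D stem-gated cells, so their fitted differences of -9.65 and -8.18 depend on the prior count. Among genes in the other set, Pld5, a phospholipase D family member, had 21.0 CPM in GF and 2.82 CPM in Abx_14D absorptive-gated cells and 411 and 247 CPM in stem-gated cells (2.47 ± 0.45, adjusted p = 0.005116). Thsd7a (34.1 and 3.98 CPM in absorptive-gated, 0.365 and 2.84 CPM in stem-gated cells), Fcgbp, Lbh, Gas2 and the non-coding Ino80dos followed. The number of such genes depended on single samples: it was 23 without GF sample 3, 36 without Abx_14D sample 3 and 142 without Abx_14D sample 4.

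**Figure D3:**
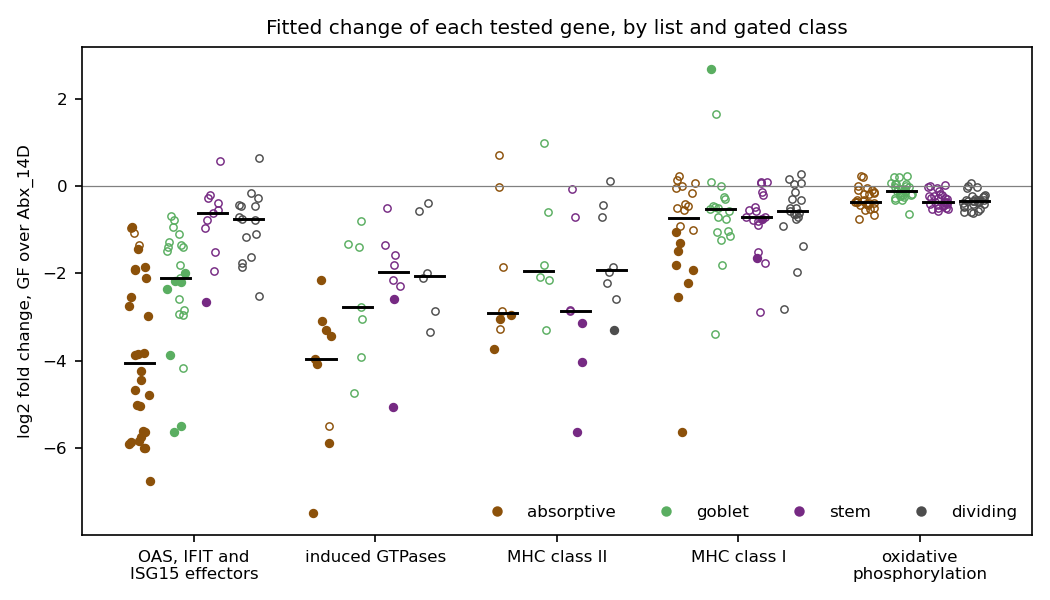
Fitted log2 fold change, GF over Abx_14D (y axis), of each tested gene of 5 lists (x axis) in 4 gated classes (colours); filled points passed an adjusted p of 0.05, open points did not, and black bars are list medians. The effector median is -4.05 in absorptive-gated and -0.62 in stem-gated cells, whereas the MHC class II medians are -2.90 and -2.86.

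Stem-gated cells showed few changes, and the leading one was in antigen presentation. Of 9957 genes tested, 3 were higher in GF (0.0301%) and 17 lower (0.171%). Of 11 tested effectors 1 fell (Oasl2, 2.27 ± 1.22 CPM in GF and 12.8 ± 7.75 CPM in Abx_14D cells), and of 8 tested GTPases 2 fell (Iigp1 and Ifi47). Cd74, the invariant chain that loads MHC class II, had 8.89, 5.84, 3.74 and 3.45 CPM in GF and 91.1, 53.1, 113 and 116 CPM in Abx_14D samples. It fell by 4.02 ± 0.33 on the log2 scale (adjusted p = 1.442e-07), and the groups did not overlap. H2-Ab1, the class II beta chain, had 1 transcript in GF and 59 in Abx_14D cells, an 80.7-fold lower summed CPM in GF (95% counting interval 13.9 to 3240). The class II coactivator Ciita averaged 0.659 ± 0.607 CPM in GF and 6.69 ± 2.98 CPM in Abx_14D cells and fell by 3.14 ± 0.60 (adjusted p = 0.01969). The sensor gene Ddx60 averaged 3.12 ± 0.771 CPM in GF and 13.7 ± 1.45 CPM in Abx_14D cells and fell by 2.12 ± 0.35 (adjusted p = 0.00519). Falls outside the interferon and MHC lists included Pclaf, a PCNA-binding factor of DNA replication (18.6 ± 6.37 CPM in GF, 46.4 ± 6.33 CPM in Abx_14D), Evl, an actin regulator (12.6 ± 6.06 and 40.4 ± 8.71 CPM), Tnfaip8, Frmd5 and Apbb1ip. Rora, a nuclear receptor of the circadian clock, rose, with 151, 74.5, 118 and 117 CPM in GF against 14.2, 25.1, 32.5 and 13.6 CPM in Abx_14D samples (2.44 ± 0.37, adjusted p = 0.001945). Rbms3, an RNA-binding protein, averaged 134 ± 44.4 CPM in GF and 40.0 ± 6.64 CPM in Abx_14D cells, and the non-coding Mir99ahg 44.2 ± 10.8 and 17.0 ± 4.88 CPM. Lgr5, the stem cell receptor used in the gate, had 792 ± 152 CPM in GF and 703 ± 148 CPM in Abx_14D cells. The count of called genes was 5, none of them higher in GF, without the samples over 0.5% mitochondrial transcripts. It was 11, 13, 7 and 12 without GF samples 1, 2 and 3 and Abx_14D sample 3.

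MHC class II genes fell in GF over all cells and in absorptive-gated, stem-gated and dividing cells. Over all cells Cd74 averaged 5.01 ± 2.41 CPM in GF and 42.0 ± 11.2 CPM in Abx_14D samples, with 188 CPM in Abx_4D and 386 CPM in Ctrl samples. Of the 8 class II genes, 5 fell over all cells (Cd74, H2-Ab1, H2-Aa, H2-Eb1 and Ciita), 3 in absorptive-gated cells, 3 in stem-gated cells and 1 in dividing cells. Their medians were -2.63, -2.90, -2.86 and -1.91 in the same order. In goblet-gated cells 0 of 6 tested passed by edgeR or limma-trend, with 3 at an unadjusted p under 0.05, and DESeq2 called 2. In dividing cells Cd74 was the single gene of 10670 that passed (0.00937%), with 5.55, 2.49, 2.54 and 3.73 CPM in GF and 40.4, 37.1, 28.1 and 25.5 CPM in Abx_14D samples (-3.29 ± 0.40, adjusted p = 0.0004631). The falls of Cd74 in absorptive-gated and stem-gated cells did not differ beyond their error (difference 1.42 ± 0.76, adjusted p = 0.5455). Thinned to equal depth, Cd74 was found in 0% to 2.25% of stem-gated cells in GF and in 13.9% to 24.6% in Abx_14D samples (adjusted exact permutation p = 0.0429). That test uses the counts from which Cd74 was called in stem-gated cells, so it is no independent evidence. Cd74 is also made by B cells and macrophages. Over all cells, B and plasma cell markers summed to 1.49, 198, 1.48 and 1.29 CPM in GF samples 1 to 4 and to 131, 2.11, 2.34 and 4.42 CPM in Abx_14D samples 1 to 4, and myeloid markers to 4.31 to 9.85 CPM in GF and 5.26 to 6.57 CPM in Abx_14D samples. Their part in the Cd74 result was not tested.

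**Figure D4:**
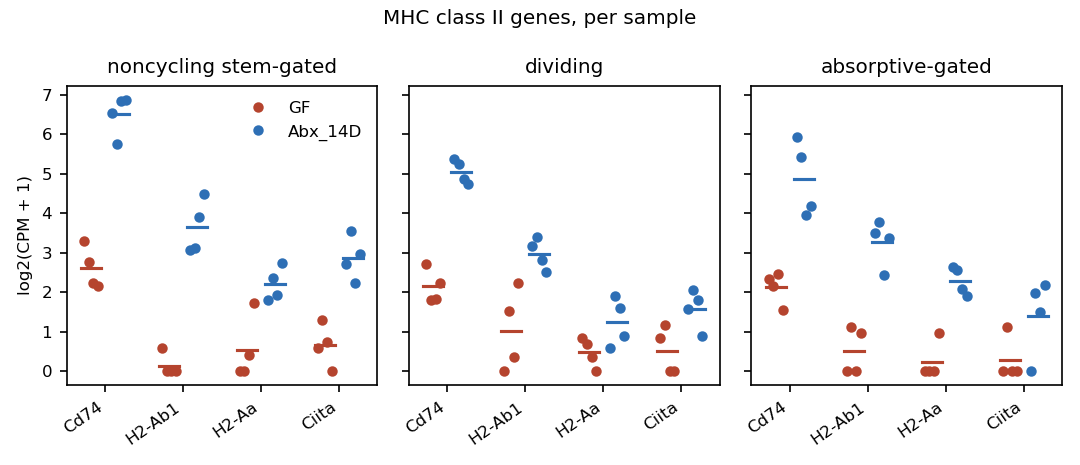
Levels of 4 MHC class II genes (y axis, log2 of CPM + 1) in noncycling stem-gated, dividing and absorptive-gated cells of GF (red) and Abx_14D (blue) samples; points are samples 1 to 4 from left to right and bars are means. Cd74 is lower in all 4 GF than in all 4 Abx_14D samples in each class.

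Among MHC class I genes, 7 of 21 tested members fell over all cells, and in absorptive-gated cells 8 of 20, with medians of -0.59 and -0.73. Nlrc5, the class I coactivator, had 0, 1.16, 1.81 and 0.487 CPM in GF absorptive-gated cells and 75.4, 78.7, 65.8 and 14.5 CPM in Abx_14D ones, and fell by 5.62 ± 0.72 on the log2 scale (adjusted p = 4.836e-05). B2m, the light chain shared by class I molecules, averaged 295 ± 87.6 CPM in GF and 836 ± 289 CPM in Abx_14D absorptive-gated cells. H2-D1, a classical heavy chain, averaged 285 ± 49.8 and 590 ± 183 CPM, and the peptide transporter gene Tap1 2.77 ± 0.861 and 16.2 ± 6.21 CPM. The immunoproteasome subunit gene Psmb9 averaged 3.03 ± 0.826 CPM in GF and 12.4 ± 3.18 CPM in Abx_14D cells. In each of these the groups did not overlap. In stem-gated cells, H2-K1 averaged 78.3 ± 9.93 CPM in GF and 133 ± 20.4 CPM in Abx_14D cells and, with the immunoproteasome gene Psmb8, was 1 of 2 class I genes that passed.

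Genes that rose in GF were scattered over the lists, at most 1 in any list over all cells. Without the samples over 0.5% mitochondrial transcripts, edgeR called 1 gene higher in GF and 40 lower, against 14 and 72. No member of the BMP, mucin, amino acid transport or gasdermin lists, which hold Bmp3, Clca1, Slc6a20a and Gsdmc4, was called there. That setting has fewer samples, and why the rises were lost was not tested. Over all cells Bmp3, a ligand of the BMP family, had 25.4, 32.0, 30.9 and 62.8 CPM in GF and 10.1, 12.2, 12.4 and 13.8 CPM in Abx_14D samples (log2 change 1.64 ± 0.27, adjusted p = 0.003687). Pld5 had 318, 288, 312 and 344 CPM in GF and 104, 172, 96.7 and 87.8 CPM in Abx_14D samples. Clca1, a secreted protein of goblet cell mucus, had 224, 202, 58.8 and 144 CPM in GF and 16.5, 31.2, 23.3 and 20.1 CPM in Abx_14D samples. For all 3 the groups did not overlap, and the Abx_14D levels were close to the means in Abx_4D (9.51, 128 and 31.1 CPM) and Ctrl (15.2, 100 and 29.0 CPM). Pdgfd, a PDGF ligand, averaged 42.1 ± 7.18 CPM in GF and 14.8 ± 4.70 CPM in Abx_14D samples, Klf12, a transcription factor, 33.0 ± 18.6 and 7.79 ± 2.31 CPM, and Slc6a20a, a proline transporter, 31.6 ± 9.25 and 12.4 ± 1.76 CPM. Kcnh1, a potassium channel, averaged 22.4 ± 1.52 CPM in GF and 10.8 ± 1.23 CPM in Abx_14D samples. Cmtm8 and Miga1 rose as well, by 1.19 ± 0.23 and 0.74 ± 0.16. Gsdmc4, an epithelial gasdermin, had 328 ± 116 CPM in GF and 136 ± 22.7 CPM in Abx_14D samples (adjusted p = 0.01761), with 446 CPM in Ctrl and 118 CPM in Abx_4D. Its close paralogs Gsdmc2 (294 and 143 CPM) and Gsdmc3 (56.7 and 29.2 CPM) did not pass, with adjusted p of 0.0657 and 0.0682, and reads shared between the 3 may be split.

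In absorptive-gated cells, Bmp3, Bmper, Aoc1 and Slc11a2 were among the 66 genes that rose. Bmp3 had 75.0, 95.2, 77.6 and 135 CPM in GF and 15.6, 15.5, 16.7 and 17.2 CPM in Abx_14D samples, a rise of 2.55 ± 0.27 on the log2 scale (adjusted p = 6.257e-06). Its near-equal level in the 4 Abx_14D samples was close to the mean in Abx_4D (17.0 CPM), with 7.26 CPM in Ctrl cells. The Abx_4D and Ctrl means are of samples 3 and 4 alone. Bmper, a secreted protein that binds BMPs, had 64.9, 51.0, 78.5 and 102 CPM in GF and 2.60, 44.7, 16.3 and 27.0 CPM in Abx_14D samples (1.65 ± 0.36, adjusted p = 0.01234). These 2 were the members of the 11 tested BMP genes that passed, and 1 member passed without the 3 samples over 0.5% mitochondrial transcripts. Aoc1, the diamine oxidase that breaks down histamine, had 243, 236, 206 and 313 CPM in GF and 62.4, 50.5, 87.1 and 81.7 CPM in Abx_14D samples (1.78 ± 0.21, adjusted p = 1.888e-05). In stem-gated cells Aoc1 averaged 49.8 ± 5.18 CPM in GF and 50.6 ± 5.02 CPM in Abx_14D samples (adjusted p = 0.9989). Thinned to equal depth, Aoc1 was found in 44.1% to 66.1% of absorptive-gated cells in GF and in 16.7% to 28.9% in Abx_14D samples. Ntn4, a netrin of the basement membrane, averaged 30.0 ± 5.28 CPM in GF and 7.98 ± 2.74 CPM in Abx_14D cells, Pbld2 35.8 ± 14.4 and 8.79 ± 2.57 CPM, and the brush border protease Mep1a 1010 ± 207 and 607 ± 117 CPM. Slc11a2 (DMT1), the iron importer, averaged 42.7 ± 24.4 CPM in GF and 13.4 ± 6.75 CPM in Abx_14D cells and rose by 1.88 ± 0.39 (adjusted p = 0.007052), but the groups overlapped. The nuclear receptor Hnf4g rose by 0.69 ± 0.18, the single gene of 16 tested cecal and proximal colon regulators to pass. Mep1a, Slc11a2 and Hnf4g did not pass by edgeR without the samples over 0.5% mitochondrial transcripts.

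**Figure D5:**
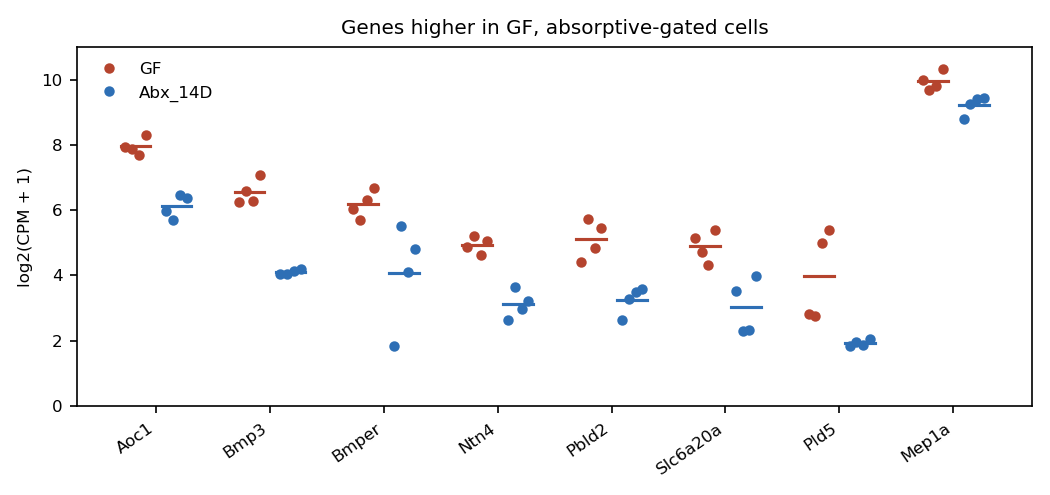
Levels of 8 genes that were higher in GF absorptive-gated cells (y axis, log2 of CPM + 1) in GF (red) and Abx_14D (blue) samples; points are samples 1 to 4 from left to right and bars are means. Bmp3 lies at 75.0 to 135 CPM in GF and at 15.5 to 17.2 CPM in Abx_14D samples.

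Single members of other lists also fell in absorptive-gated cells. Of 22 tested immediate early genes, which respond to growth signals and to tissue handling, 5 fell: Fosb, Jun, Egr1, Atf3 and Dusp1. Jun had 103, 95.2, 105 and 100 CPM in GF and 179, 153, 473 and 262 CPM in Abx_14D samples (-1.44 ± 0.26, adjusted p = 0.002277). Abx_14D samples 3 and 4, which had over 0.5% mitochondrial transcripts, were the highest for Jun, as was sample 3 for Fosb, Egr1, Atf3 and Dusp1. The groups overlapped for Egr1, Atf3 and Dusp1. Without the 3 samples over 0.5% mitochondrial transcripts none of the 22 passed by edgeR, whereas 27 effectors still did. That setting sets GF samples 1 to 3 against Abx_14D samples 1 and 2 alone, which were the high-Xist ones. Mitochondrial share thus cannot be told apart there from the split by number or from the smaller count of samples. Of 8 tested regeneration genes 4 fell, with Anxa1 at 38.0 ± 10.1 CPM in GF and 103 ± 26.5 CPM in Abx_14D cells, Plaur at 4.38 ± 1.16 and 27.2 ± 17.6 CPM, and the EGF receptor ligand Areg and Ly6a (Sca-1) also lower. The groups overlapped for Plaur and Areg. Without the samples over 0.5% mitochondrial transcripts none of the regeneration genes passed by edgeR. Ly6a averaged 98.8 CPM in Ctrl cells (samples 3 and 4 alone), far above both groups. Among 23 tested ion and water transporters 3 fell. Aqp8, a water channel, had 97.4, 70.8, 50.8 and 55.5 CPM in GF and 98.8, 201, 289 and 211 CPM in Abx_14D samples (-1.66 ± 0.27, adjusted p = 0.0009273). The sodium-proton exchanger gene Slc9a3 averaged 298 ± 56.7 CPM in GF and 590 ± 118 CPM in Abx_14D cells, and Clca4b 9.40 ± 3.69 and 58.8 ± 64.1 CPM. Of 21 tested sterol synthesis genes 2 fell (Msmo1, 89.8 ± 25.9 CPM in GF and 215 ± 57.7 CPM in Abx_14D, and Fdft1, 63.6 ± 7.81 and 114 ± 9.46 CPM), and the lipoprotein receptor gene Vldlr fell by 1.30 ± 0.24. Neither Vldlr nor any sterol synthesis gene passed by edgeR without the samples over 0.5% mitochondrial transcripts, and 2 of the transporters did. The membrane mucin gene Muc4 averaged 10.7 ± 2.48 CPM in GF and 33.0 ± 8.30 CPM in Abx_14D cells, with 461 CPM in Ctrl samples 3 and 4.

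Clock and nicotinamide genes changed singly. Of 16 tested clock genes in absorptive-gated cells, Cry1 and Arntl fell (51.5 ± 13.1 CPM in GF and 103 ± 38.0 CPM in Abx_14D for Cry1, 89.1 ± 10.7 and 151 ± 37.5 CPM for Arntl), while Tef rose. The hour at which tissue was taken is not given. Of 13 tested genes of nicotinic acid and NAD, Nampt, which makes the NAD precursor from nicotinamide, fell, with 106, 66.1, 69.9 and 83.2 CPM in GF and 148, 142, 149 and 111 CPM in Abx_14D samples (-0.78 ± 0.19, adjusted p = 0.02607). No gene of this list passed by edgeR without the samples over 0.5% mitochondrial transcripts. Naprt, which starts NAD synthesis from nicotinic acid, averaged 31.8 ± 5.94 CPM in GF and 24.8 ± 4.72 CPM in Abx_14D cells and did not pass (adjusted p = 0.6566). Slc5a8, a transporter of short-chain fatty acids and nicotinate, averaged 105 ± 22 and 79.6 ± 11.4 CPM (adjusted p = 0.4012).

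In absorptive-gated cells the number of called genes was 267, and it was 134 without Abx_14D sample 3 and 177 without GF sample 3. It was 113, with 11 higher in GF and 102 lower, without the 3 samples over 0.5% mitochondrial transcripts.

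Goblet-gated cells, with 23 to 54 cells a sample, gave a list of called genes that varied with the test and the samples used. Of 9852 genes tested, 45 were higher in GF (0.457%) and 42 lower (0.426%). Of 23 tested effectors 7 fell, with a median of -2.11 beside -0.07 over all genes. DESeq2 called 12 effectors and limma-trend 3, and edgeR called 2 without the samples over 0.5% mitochondrial transcripts and 1 with sample numbers 1 and 2 against 3 and 4 as a term. Of 7 tested GTPases none was called by edgeR or limma-trend, 6 had an unadjusted p under 0.05, and DESeq2 called 2. Oasl2 had 5.03, 8.11, 2.48 and 2.93 CPM in GF and 57.8, 116, 97.4 and 11.7 CPM in Abx_14D samples (-3.86 ± 0.59, adjusted p = 0.02401). Ifi27l2b had 12.6, 13.1, 14.1 and 23.4 CPM in GF and 67.4, 62.8, 60.9 and 63.5 CPM in Abx_14D samples (-1.99 ± 0.26, adjusted p = 0.009082). Clca1 had 1870, 938, 665 and 706 CPM in GF and 152, 392, 353 and 247 CPM in Abx_14D samples (1.87 ± 0.42, adjusted p = 0.04977), and the groups did not overlap. Clca1 is itself a marker used in the goblet gate, so its counts helped select these cells. Many other genes that rose are genes of absorptive cells, such as the chloride exchanger Slc26a3, with 28.9, 766, 454 and 1380 CPM in GF and 44.5, 24.8, 39.8 and 71.9 CPM in Abx_14D samples. The summed absorptive markers in goblet-gated cells stood at 516, 1703, 1880 and 4732 CPM in GF samples 1 to 4 and at 464, 601, 589 and 695 CPM in Abx_14D samples 1 to 4, and cells with both marker sets numbered 0, 5, 1 and 4 in GF and 0, 0, 1 and 2 in Abx_14D samples. Without those cells 12 genes passed, 1 higher and 11 lower. The count was 436 without GF sample 1, 18 without GF sample 3 or Abx_14D sample 4, 44 without Abx_14D sample 2, 7, 2 and 1 without Abx_14D samples 1 and 3 and GF sample 4, and 0 without GF sample 2 (edgeR, with 1008 genes at an unadjusted p under 0.05).

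Over all cells, 1 of 17 tested ER stress genes fell: Asns, which makes asparagine, averaged 7.51 ± 1.5 CPM in GF and 17.2 ± 4.36 CPM in Abx_14D samples (-1.19 ± 0.25, adjusted p = 0.02524). Of 13 tested regeneration genes 1 fell: Ly6a averaged 0.890 ± 0.517 CPM in GF and 3.39 ± 0.81 CPM in Abx_14D samples (-1.95 ± 0.40, adjusted p = 0.02402). The lists that follow gave no gene called by edgeR over all cells. All 20 tested cell cycle genes had lower fitted levels in GF (median -0.51), with 9 at an unadjusted p under 0.05 and none past adjustment by edgeR or limma-trend; DESeq2 called 4, as did edgeR with sample numbers 1 and 2 against 3 and 4 as a term. The dividing gate is built on such genes, so its share and this list are not independent measures. The 27 tested oxidative phosphorylation genes were all fitted lower (median -0.40), with 5 at an unadjusted p under 0.05 and none called by edgeR, DESeq2 or limma-trend. Of 16 tested antibacterial and oxidase genes none was called by edgeR, 3 had an unadjusted p under 0.05, and DESeq2 and limma-trend called 2 and 1. The antibacterial lectin Reg3g averaged 0.900 CPM in GF and 2.28 CPM in Abx_14D samples (adjusted p = 0.5758), with 60.3 CPM in Ctrl.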

How the data were processed

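Counts of transcripts per cell and gene, not normalised, were deposited by the authors as 1 matrix with a cell table. Per the submitters' processing notes Seurat and the build mm39 were used, while no aligner or counting tool is named in the sources used here. The 8 deposited samples are sublibraries of a split-pool kit (Parse Evercode) that each hold cells of every group, so groups come from the 32 sample names in the cell table. Of the GF and Abx_14D cecal barcodes 1 was below 500 transcripts. Of cecal cells, 285 carry the same well barcodes as a cell of another sublibrary, and they were kept as separate cells. Doublets were not removed. Classes were gated on marker transcripts per 10000 in the order tuft and enteroendocrine (5 each), T and NK cell (3), goblet (30), absorptive (50), dividing (G2 and M phase, 10), S phase (10) and stem (20). Cells near a threshold may fall on either side: 161 lay just above and 136 just below the absorptive one, and 388 and 291 the stem one. With gates 1.5 times as strict, 6 stem-gated genes named by size no longer passed and 3 did. In absorptive-gated cells 1 no longer passed and 11 did.

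Each sample's counts were added up within a class, given 20 cells or more, and tested in 1 fit of the cecal samples, GF over Abx_14D. The test was edgeR 4.0.16 (quasi-likelihood, library-size scaling, filterByExpr, R 4.3.3), with Benjamini-Hochberg adjustment at 0.05. All 16 cecal samples entered the fits of all, stem-gated and dividing cells. Ctrl and Abx_4D samples 1 and 2 held too few absorptive-gated cells to enter that fit. Ctrl samples 1 and 3 and Abx_4D samples 1 and 2 held too few goblet-gated cells. DESeq2 1.42.0 and limma 3.58.1 were alternatives. The fits were tested on simulated data. Shares were compared by exact permutation (scipy). Levels are means of CPM with SD, changes log2 fold changes with SE.

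The groups, markers and 34 gene lists were chosen with earlier results of these data known. Genes named are the 12 largest called changes each way over all cells and the 6 largest in a class, with at least 20 CPM in the higher group and no overlap of samples, leaving out predicted genes and gate markers, plus at most 6 called members of each list and members shown not to pass. Mx2 and Gbp2 were named after their values were seen. Some genes that the naming rule selects are not reported here.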

Additional observations from a re-analysis of the deposited data

Results flagged for a closer look

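In 4 of 132 sets of 4 samples, 1 sample lay far from the other 3, by its gap to the nearest as a share of the whole range (Dixon's test at 95%). Chance flags about 1 in 20 such sets. Over all cells, Abx_14D sample 3 was high for Oas3 (0.835), at 40.6 CPM, with 11.1 to 16 CPM in the other Abx_14D samples. In stem-gated cells, Abx_14D sample 3 was low for Apbb1ip (0.908), at 56.6 CPM, with 91.3 to 94.8 CPM in the others. In goblet-gated cells, Abx_14D sample 3 was high for Krt20 (0.83), at 21.0 CPM. GF sample 2 was high for Oas2 (1.0), at 1.87 CPM from 3 transcripts, with 0 CPM in the other GF samples.

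Of the 80 genes whose change in GF differed between absorptive-gated and stem-gated cells in a test of the difference itself, 12 were named by size, and their differences are given here in log2 units, absorptive minus stem. It was -6.08 for Rsad2, -5.13 for Usp18, -4.34 for Herc6 and -3.87 for Trim30a. It was 2.58 for Fcgbp, 2.47 for Pld5, 2.32 for Lbh, 2.10 for Gas2 and 1.84 for Ino80dos. The values for Ifit1 (-9.65), Zbp1 (-8.18) and Thsd7a (6.39) rest on groups of stem-gated cells with 0 to 2 transcripts, and depend on the prior count.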

How the results depend on the processing

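Over all cells the 86 called genes became 183 by DESeq2 (57 higher and 126 lower, against 14 and 72), 41 without the samples over 0.5% mitochondrial transcripts, 230 with sample numbers 1 and 2 against 3 and 4 as a term, and 54 to 103 with 1 sample left out. In absorptive-gated cells the 267 became 467 with no filter on low counts, 113 without the samples high in mitochondrial transcripts, and 134 to 298 with 1 sample left out. In stem-gated cells the 20 became 42 by DESeq2 (12 higher and 30 lower, against 3 and 17), 9 by limma-trend, 143 with no filter, 2 with cells thinned to 5000 transcripts, 5 without the high mitochondrial samples, 8 and 5 in sublibraries 1 to 4 and 5 to 8, and 7 to 28 with 1 sample left out. In dividing cells the 1 became 7 with TMM scaling (4 higher and 3 lower), 32 by DESeq2, 173 with no filter, 6 with the GF and Abx_14D samples alone, 5 thinned, 6 without the high mitochondrial samples, 5 in sublibraries 5 to 8, 24 with that term, and 1 to 4 with 1 sample left out. In goblet-gated cells the 87 became 234 by DESeq2, 13 by limma-trend, 634 with no filter, 1 with the 8 samples alone, 15 thinned, 3 without the high mitochondrial samples, 723 in sublibraries 1 to 4, 1 with that term, 12 without cells rich in absorptive markers, 57 with a gate 1.5 times as strict, and 0 to 436 with 1 sample left out; sublibraries 5 to 8 gave no value. The 80 genes that differed between absorptive-gated and stem-gated cells became 195 with no filter and 23 to 142 with 1 sample left out, and with TMM scaling 23 and 65 in the 2 directions, against 30 and 50. Where fewer samples or more genes were tested the count changes by construction; otherwise the cause was not tested.

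With the sample number as a replicate block, the counts were 224 over all cells, 307 in absorptive-gated, 17 in stem-gated, 27 in dividing and 37 in goblet-gated cells. The numbers were not taken as pairs: same-numbered samples had correlations of 0.327, 0.0434, 0.0547 and 0.435 over all cells. Samples of other numbers on the same side of the Xist split also correlated. GF sample 1 had 0.399 with Abx_14D sample 2, and GF sample 4 had 0.447 with Abx_14D sample 3. Across the split GF sample 1 had -0.322 and -0.458, and GF sample 4 had -0.4 and -0.42. GF samples 2 and 3 had only -0.197 to 0.0766 with any Abx_14D sample. The main fits hold no term for this split. No gene named by size changed direction in any of these settings that tested it, and 36 of 57 no longer passed without the high mitochondrial samples. That term and the goblet cells low in absorptive markers were chosen after seeing the data. Depth limits the genes with few transcripts, and the number of cells (23 to 54 a sample) limits the goblet-gated class.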
